A study of Homo sapiens with 25 samples.

Results

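The 10 forkhead factor genes FOXA1, FOXA2, FOXC1, FOXD1, FOXD2, FOXF1, FOXO1, FOXO3, FOXP1 and FOXQ1 were followed through 18 lists of ChIP-seq peaks from HCT116, an established human colorectal carcinoma cell line. They were chosen by name, with earlier results of these data known, from the 19974 protein-coding genes on chromosomes 1 to 22 and X. Each was given a window that ran from 50 kb before to 50 kb after its RefSeq span in hg38. The 10 windows held 1096 of the 1133018 peaks in the lists. FOXD2 cells had been transduced with a pSin lentivirus that carries the full-length FOXD2 coding sequence, control cells with the empty pSin vector, and both were kept as stable lines under puromycin. FOXD2 is therefore made from a vector on top of the endogenous gene, and peaks on the FOXD2 coding sequence can hold reads of the vector. H3K4me1, H3K27ac and MLL4 each had 2 FOXD2 lists and 2 control lists, and H3K4me3 had 1 list per group. A further 4 lists, 2 for 6xHis and 2 for FLAG, came from HCT116 given a pcDNA3.1 plasmid for FOXD2 with both tags, and no library without the tags is used here. Nothing in the labels says that libraries of a group came from separate cultures, so the spread between them may be technical.

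Forkhead factors are transcription factors that bind DNA through a winged-helix domain, and most recognise variants of the sequence TAAACA or CAAACA. The FOXA proteins bind closed chromatin ahead of other factors and pattern gut endoderm, the FOXO proteins are held in the cytoplasm by insulin and AKT signalling and otherwise drive stress and cell-cycle arrest genes, and FOXC, FOXD and FOXF proteins shape mesoderm, neural crest and gut mesenchyme. FOXP1 is a repressor with roles in lymphocytes and development, and FOXQ1 is a Wnt target that is often highly expressed in colorectal cancer. H3K4me1 marks enhancers, H3K27ac marks active enhancers and promoters, H3K4me3 marks promoters, and MLL4, encoded by KMT2D, is a methyltransferase that places H3K4me1 at enhancers.

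The promoters of the 4 genes whose H3K4me1 rose, and of FOXD2 itself, are shown because the marks described below lie on or around them. Each is the stretch from 250 bases before to 50 bases after an annotated start, 5′ to 3′ on the gene's strand, from RefSeq (GRCh38.p14), with any forkhead motif in capitals. The motifs searched on both strands were GTAAACA, the variant ATAAACA, the form GCAAACA and also the form ACAAACA. FOXQ1 is at chr6:1311848-1312147 (plus strand), FOXO1 at chr13:40666592-40666891 (minus strand), FOXO3 at chr6:108560667-108560966 (plus strand, the second of its 4 listed starts), FOXP1 at chr3:71583679-71583978 (minus strand, the most upstream of its 6 listed starts) and FOXD2 at chr1:47437794-47438093 (plus strand).
FOXQ1: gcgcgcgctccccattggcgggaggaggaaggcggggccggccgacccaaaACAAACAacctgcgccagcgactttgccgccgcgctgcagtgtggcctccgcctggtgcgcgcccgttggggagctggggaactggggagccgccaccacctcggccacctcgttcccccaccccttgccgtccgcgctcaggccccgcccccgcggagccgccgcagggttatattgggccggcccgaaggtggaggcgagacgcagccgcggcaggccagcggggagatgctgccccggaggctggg
FOXO1: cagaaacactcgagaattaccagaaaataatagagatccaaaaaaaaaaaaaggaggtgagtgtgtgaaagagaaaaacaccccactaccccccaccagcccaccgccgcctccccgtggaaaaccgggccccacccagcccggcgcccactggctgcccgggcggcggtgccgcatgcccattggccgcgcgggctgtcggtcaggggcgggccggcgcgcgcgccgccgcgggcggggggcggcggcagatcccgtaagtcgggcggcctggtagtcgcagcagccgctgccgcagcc
FOXO3: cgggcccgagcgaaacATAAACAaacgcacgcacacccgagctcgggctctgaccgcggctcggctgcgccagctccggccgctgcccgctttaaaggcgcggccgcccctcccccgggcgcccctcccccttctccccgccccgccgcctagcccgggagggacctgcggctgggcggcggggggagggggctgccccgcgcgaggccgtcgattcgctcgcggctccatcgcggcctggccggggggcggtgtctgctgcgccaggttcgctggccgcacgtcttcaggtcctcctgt
FOXP1: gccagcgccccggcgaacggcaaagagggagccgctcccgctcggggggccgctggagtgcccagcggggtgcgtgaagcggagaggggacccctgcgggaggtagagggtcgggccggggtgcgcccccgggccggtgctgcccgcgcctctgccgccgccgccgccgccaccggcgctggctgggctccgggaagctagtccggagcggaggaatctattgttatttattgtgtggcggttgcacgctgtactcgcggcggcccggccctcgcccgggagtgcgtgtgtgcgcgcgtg
FOXD2: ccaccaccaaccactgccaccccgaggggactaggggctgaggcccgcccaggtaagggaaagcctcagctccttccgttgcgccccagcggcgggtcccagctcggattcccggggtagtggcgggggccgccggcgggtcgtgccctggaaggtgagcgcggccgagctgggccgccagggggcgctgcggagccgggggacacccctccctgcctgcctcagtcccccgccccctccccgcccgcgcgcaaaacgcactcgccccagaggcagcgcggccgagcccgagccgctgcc
The FOXQ1 promoter holds ACAAACA, which is in 5.23% of 35116 human promoters of the same length. The FOXO3 promoter printed above holds ATAAACA, which is in 4.24%. The other listed FOXO3 promoters hold none of the motifs, including the one at the start from which distances are measured. At least 1 of the 4 motifs is in 15.1% of all promoters. Among the 16 listed promoters of 8 of the 10 genes, 2 others hold a motif. They are the FOXA1 promoter at chr14:37595200-37595499, with GCAAACA, found in 3.89% of promoters, and an internal FOXP1 promoter at chr3:71245028-71245327, with GTAAACA on the other strand, found in 3.42%. A match is a match of letters and not a measured binding site.

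H3K4me3 lay on 8 of 11 colonic epithelium markers in both the FOXD2 and the control list, including EPCAM, CDH1, KRT8, KRT18, KRT19 and CDX2, and on none of KRT20, VIL1 and CDX1. It lay on 2 of 6 fibroblast, 2 of 5 blood and 2 of 4 endothelial markers in both lists, and on 3 of 4 neural markers in the FOXD2 list and 4 of 4 in the control list. COL1A2, COL3A1, DCN, LUM, PTPRC, CD3E, CD14, KDR and TEK had none. The H3K4me1 lists held 114893 and 129887 peaks in FOXD2 cells and 101204 and 95756 in control cells. The H3K27ac lists held 85122 and 141008 peaks in FOXD2 cells and 129995 and 85832 in control cells, so the replicates of a group differed more than the groups. The MLL4 lists held 22493 and 4676 peaks in FOXD2 cells and 16046 and 13571 in control cells, and FOXD2 replicate 2 is short. No source used here gives the read depth, and longer lists cover more of every window.

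H3K4me1 rose at 4 of the 10 genes in FOXD2 cells, FOXQ1, FOXO1, FOXO3 and FOXP1, where 21.4% of all genes rose by the same test. The quantity compared is the length covered by peaks in the window. The windows of FOXO1, FOXO3 and FOXP1 are the longest of the 10, at 211.0, 225.0 and 729.3 kb, and that of FOXQ1 is 102.7 kb. No share over all genes given here was matched for window length. The FOXQ1 window had 23.98 and 27.99 kb of H3K4me1 in the FOXD2 lists, against 8.40 and 8.38 kb in the control lists, a 3.10-fold difference of means. Both FOXD2 lists were far above both control lists, and only 1.51% of the 18520 genes tested had a larger log2 difference. FOXO1, a target of AKT, had 28.53 and 30.78 kb in FOXD2 cells and 13.26 and 10.91 kb in control cells. FOXO3, its close relative, had the most H3K4me1 of the 10 genes in every list, with 90.52 and 102.47 kb in FOXD2 cells and 46.28 and 41.92 kb in control cells. FOXP1 had 17.09 and 20.12 kb in FOXD2 cells and 9.83 and 9.17 kb in control cells. In each of the 4 windows the control lists lay close together and well below the FOXD2 lists.

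On the log2(kb + 1) scale the difference, FOXD2 minus control, was 1.52 at FOXQ1 (SE 0.23, n = 2 lists per group), with an adjusted p of 5.21e-09 in limma. It was 1.23 at FOXO1 (SE 0.23, limma adjusted p = 2.44e-06), 1.11 at FOXO3 (SE 0.18, limma adjusted p = 7e-08) and 0.90 at FOXP1 (SE 0.24, limma adjusted p = 0.00131), each higher in both FOXD2 lists. The adjustment was made over all 18520 genes, of which limma called 3962 higher and 391, or 2.11%, lower. It called 0 of the 10 lower, and at an unadjusted p under 0.05 again 4 of the 10 were higher, where 29% of all genes were, and 0 lower, where 3.35% were. These p-values rest on limma's estimate that all genes of like level share their spread (an infinite prior on the degrees of freedom). With the number of peaks in place of kb the prior was 0.76 degrees of freedom, and none of the 10 passed, with limma adjusted p between 0.078 and 0.116 at these 4. With genes that have no peak kept in, the prior was 1.47 and limma adjusted p lay between 0.0684 and 0.084. An exact permutation test of 2 lists against 2 cannot go below p = 0.33, the value for each of the 4 genes.

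**Figure D1:**
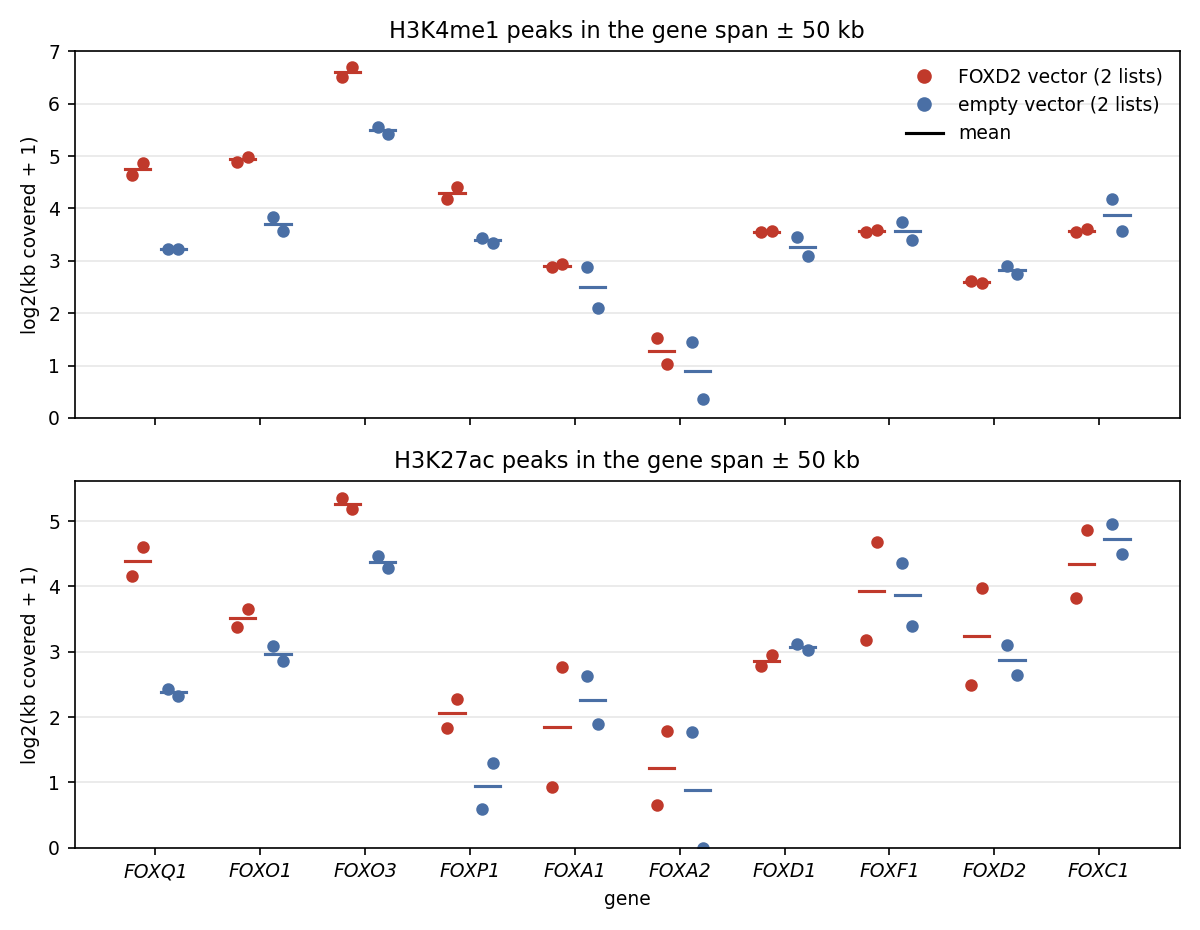
Length covered by peaks in the window of each gene, as log2(kb + 1), for H3K4me1 (top) and H3K27ac (bottom). Points are single lists, with FOXD2 lists to the left of control lists, and bars are means; at FOXQ1, FOXO1, FOXO3 and FOXP1 both FOXD2 lists lie above both control lists for both marks.

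The other 6 genes did not pass for H3K4me1. FOXD1, a factor of kidney stroma and the neural plate, had 10.67 and 10.79 kb in FOXD2 cells and 9.93 and 7.47 kb in control cells, higher in both lists but by 0.29 on the log2(kb + 1) scale (limma adjusted p = 0.459). FOXD2 had 5.10 and 4.95 kb in FOXD2 cells and 6.49 and 5.72 kb in control cells, lower in both lists by a log2 difference of -0.24 (limma adjusted p = 0.579). That direction depended on the window: the difference was 0.27 with no flank (limma adjusted p = 0.699) and 0.61, called higher, with a 100 kb flank (limma adjusted p = 0.0397). The groups overlapped at the other 4. FOXC1, which directs mesoderm and eye development, had 10.72 and 11.12 kb in FOXD2 cells and 17.24 and 10.82 kb in control cells. FOXF1, which acts in lung and gut mesenchyme, had 10.64 and 11.09 kb in FOXD2 cells against 12.34 and 9.47 kb in control cells. FOXA1 had 6.33 and 6.68 kb in FOXD2 cells against 6.38 and 3.29 kb in control cells, and FOXA2 had 1.87 and 1.03 kb in FOXD2 cells against 1.74 and 0.28 kb in control cells, the least of the 10. Without a test, 5 of the 10 genes were higher in each FOXD2 list than in both control lists, against 46.5% of genes, and 1 was lower, against 8.97%.

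The median log2 difference in H3K4me1 was 0.39 over the 10 genes and 0.20 over all genes tested. With each list centred on its own median the 4 genes kept adjusted p between 1.89e-08 and 0.00116 in limma. FOXC1 and FOXD2 were then called lower, by log2 differences of -0.62 (adjusted p = 0.000766) and -0.56 (adjusted p = 0.00986) in limma, at FOXD2 against the higher call with the 100 kb flank. Under that centring 16.8% of all genes were called higher and 26.1% lower, in place of 21.4% and 2.11%. With all H3K4me1 lists shortened to the same number of peaks, the 4 genes had log2 differences of 1.52 at FOXQ1, 1.06 at FOXO1, 0.99 at FOXO3 and 0.70 at FOXP1, with limma adjusted p between 6.87e-10 and 0.0128. Leaving out FOXD2 replicate 2 left only FOXQ1 past the threshold, and leaving out FOXD2 replicate 1 or control replicate 2 left FOXQ1, FOXO1 and FOXO3.

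**Figure D2:**
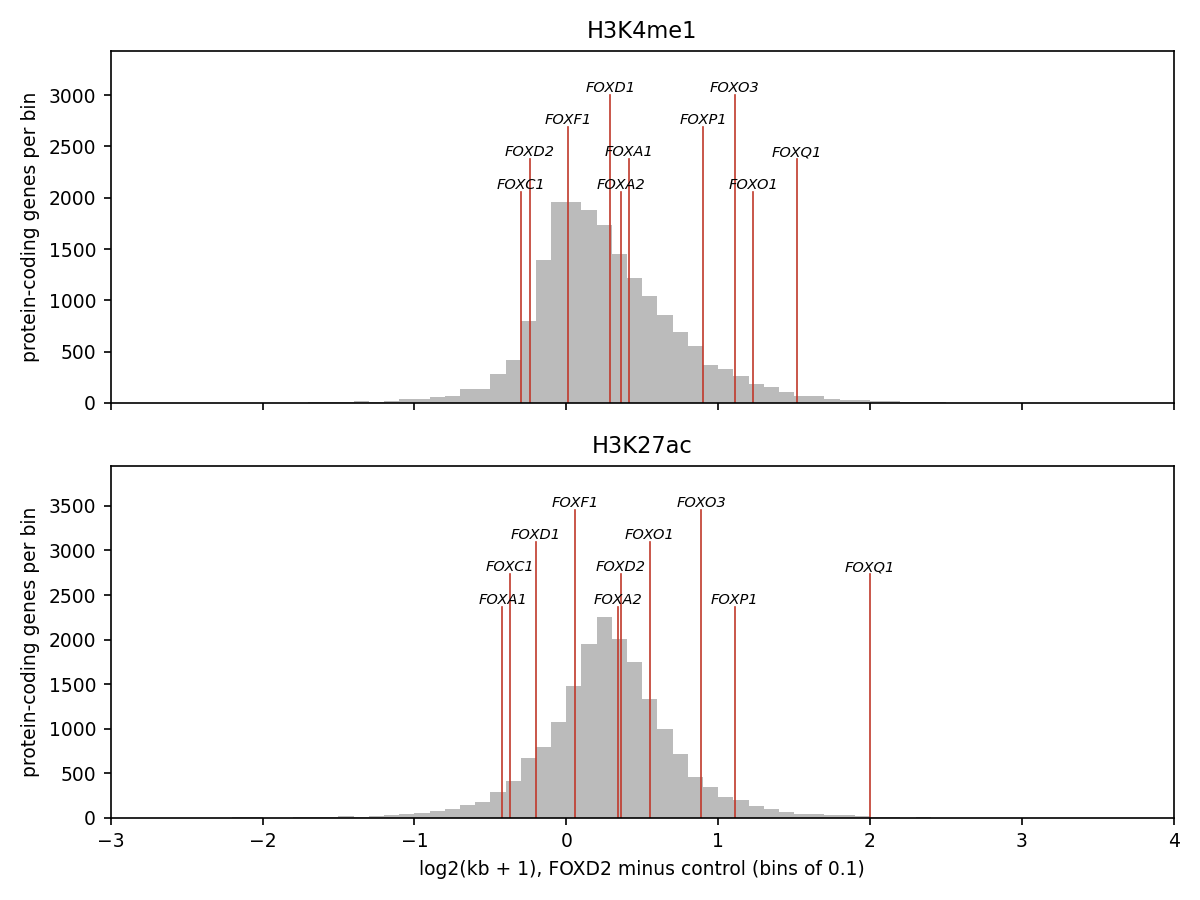
Distribution over all protein-coding genes tested of the difference in log2(kb + 1), FOXD2 minus control, for H3K4me1 (top, 18520 genes) and H3K27ac (bottom, 18205 genes), in bins of 0.1. Red lines mark the 10 forkhead genes; FOXQ1 lies in the right tail for both marks, with 1.51% of genes beyond it for H3K4me1 and 0.165% for H3K27ac.

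H3K27ac was higher in each FOXD2 list than in both control lists at FOXQ1, FOXO1, FOXO3 and FOXP1, as it was at 27.9% of genes, but no gene passed the test across the genome. FOXQ1 had 16.88 and 23.42 kb in FOXD2 cells and 4.41 and 4.02 kb in control cells, a 4.78-fold difference of means. Only 30 of 18205 genes, or 0.165%, had a larger log2 difference than its 2.00 (SE 0.38, limma unadjusted p = 0.00119, adjusted p = 0.479). FOXO3 had 39.82 and 35.23 kb in FOXD2 cells and 21.00 and 18.53 kb in control cells. FOXO1 had 9.44 and 11.53 kb in FOXD2 cells and 7.49 and 6.22 kb in control cells. FOXP1 had little, with 2.57 and 3.86 kb in FOXD2 cells and 0.51 and 1.46 kb in control cells. The limma adjusted p was 0.881 at FOXO3, 0.965 at FOXO1 and 0.664 at FOXP1. FOXD1 was lower in both FOXD2 lists, as were 3.62% of genes, with 5.88 and 6.71 kb in FOXD2 cells and 7.65 and 7.14 kb in control cells.

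At the other 5 genes the replicates of a group differed by as much as the groups. FOXC1 had 13.18 and 28.24 kb of H3K27ac in FOXD2 cells and 29.87 and 21.54 kb in control cells. FOXF1 had 8.04 and 24.70 kb in FOXD2 cells against 19.46 and 9.51 kb in control cells, and FOXD2 had 4.62 and 14.77 kb in FOXD2 cells against 7.63 and 5.24 kb in control cells. FOXA1 had 0.90 and 5.80 kb in FOXD2 cells against 5.20 and 2.73 kb in control cells, and FOXA2 had 0.58 and 2.45 kb in FOXD2 cells against 2.41 and 0.00 kb in control cells. In all 5 the longer lists, FOXD2 replicate 2 and control replicate 1, held more than the shorter list of their group, and list length was not separated from the mark here. limma called 0 of the 18205 genes in either direction, with 1009 (5.54%) higher and 142 (0.78%) lower at unadjusted p under 0.05. Of the 10, 2 were among those higher, FOXQ1 and FOXP1, and none among those lower. The median log2 difference was 0.35 over the 10 genes and 0.28 over all genes.

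At FOXQ1 the differences lay upstream of the gene, on its promoter and in wider domains downstream. All 4 H3K4me1 regions found only in FOXD2 lists, which means that the 2 FOXD2 lists held them and the 2 control lists did not, were upstream, with midpoints 48.0, 44.6, 25.0 and 14.9 kb before the start. The one at 25.0 kb, chr6:1285072-1289219, was 4148 bp wide with the authors' fold enrichment at 15.63 and 14.18. H3K27ac in both FOXD2 lists and neither control list lay on it too, at chr6:1285497-1287363. The promoter itself had H3K4me1 in all 4 lists and H3K4me3 in both, but H3K27ac in both FOXD2 lists and in neither control list. That H3K27ac region, chr6:1309528-1313257, was 3730 bp wide with the authors' fold enrichment at 7.03 and 15.18, and further FOXD2-only regions of 1391 and 1172 bp followed 2.3 and 4.1 kb after the start. Within the gene span H3K27ac covered 1.62 and 1.92 kb in FOXD2 cells and 0.00 and 0.00 kb in control cells, while H3K4me1 covered 1.91 and 2.03 kb in FOXD2 cells and 1.95 and 1.97 kb in control cells. The gene span alone therefore shows no H3K4me1 difference at FOXQ1, and the rise there comes from the flanks.

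Domains that all 4 lists held at FOXQ1 were also wider in FOXD2 cells. The H3K4me1 domain centred 13.1 kb after the start covered 5.95 and 6.12 kb in FOXD2 cells and 1.61 and 1.5 kb in control cells. The one at 23.4 kb covered 5.42 and 5.19 kb in FOXD2 cells and 3.24 and 3.23 kb in control cells. H3K27ac in the domain at 13.7 kb covered 5.62 and 5.30 kb in FOXD2 cells and 1.12 and 0.98 kb in control cells. The same domain held the only FOXD2-only MLL4 region in the 10 windows (4.16% of genes had one), chr6:1325656-1326062, with the authors' fold enrichment at 4.61 and 4.00. The MLL4 region at 23.6 kb was in all 4 lists. Regions held by all 4 lists were longer in both FOXD2 lists at 4 of 4 H3K4me1 and 2 of 2 H3K27ac regions of FOXQ1. Of all such regions, 33.5% were for H3K4me1 and 29.4% for H3K27ac. These lengths are part of the kb compared over the window.

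**Figure D3:**
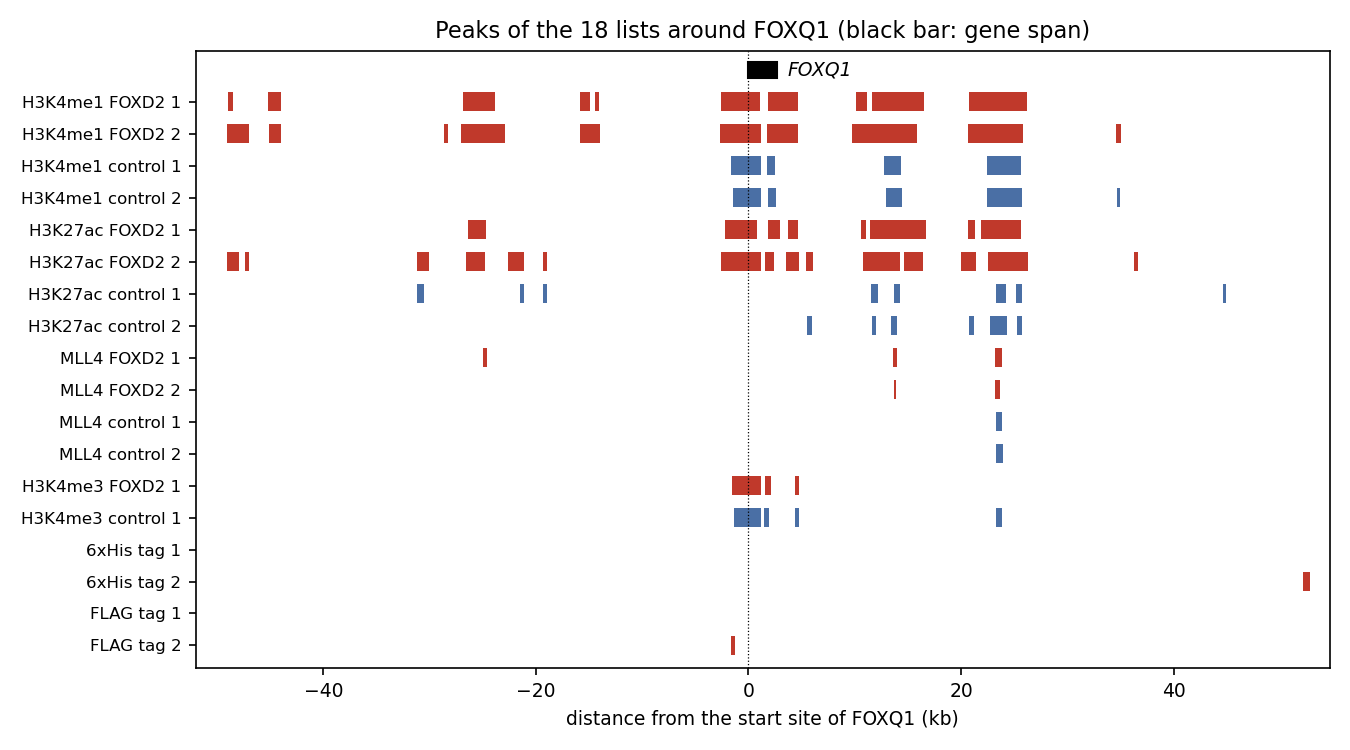
Peaks of the 18 lists in the FOXQ1 window by distance from the start site in kb, with FOXD2 lists (red) above control lists (blue) for each mark and the tag lists at the bottom; the black bar is the gene span. Upstream H3K4me1 and promoter H3K27ac appear in both FOXD2 rows and in no control row, and the domains near 13 and 23 kb are wider in the FOXD2 rows.

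FOXO3 rose along the body of the gene. Its span of 125.0 kb had 66.73 and 75.89 kb of H3K4me1 in FOXD2 cells and 26.56 and 25.42 kb in control cells. Of 17 FOXD2-only H3K4me1 regions, which sum to 21.09 kb, 16 lay inside the gene, with midpoints between 10.4 and 122.7 kb from the start, and 1 lay 4.3 kb upstream. The regions that all 4 lists held covered more, with 67.70 and 72.68 kb in FOXD2 cells and 42.84 and 40.65 kb in control cells. Of these, 10 of 14 were longer in both FOXD2 lists, against 33.5% of all such regions, and none was shorter, against 19.4%. Only 1 of the 17 FOXD2-only regions had H3K27ac in both FOXD2 lists. It was chr6:108572832-108575529, 2698 bp wide and 14.4 kb from the start, with H3K27ac in 1 control list as well. FOXD2-only H3K27ac lay at 4 other places, 19.7, 62.2, 125.2 and 168.6 kb from the start. A near-identical copy, FOXO3B on chromosome 17, shares sequence with FOXO3, so reads of the 2 cannot always be told apart.

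**Figure D4:**
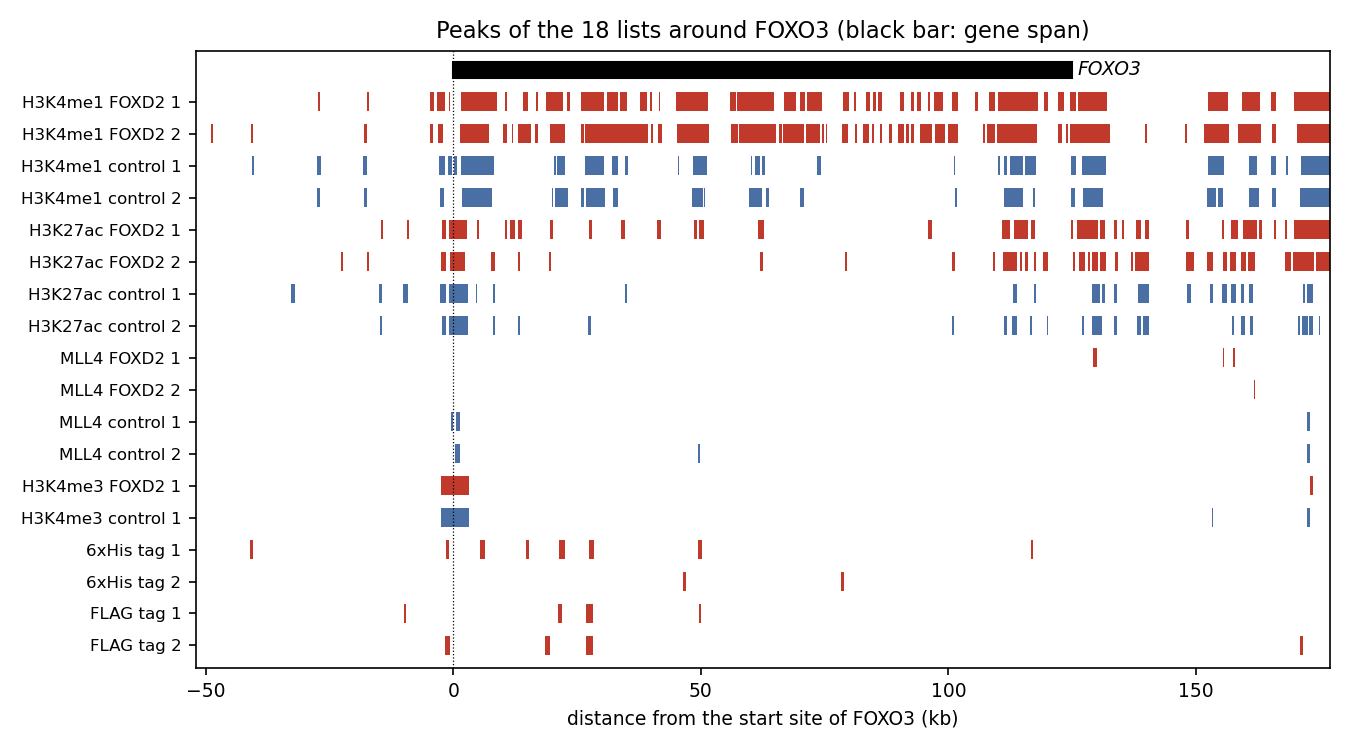
Peaks of the 18 lists in the FOXO3 window by distance from the start site in kb, with FOXD2 lists (red) above control lists (blue) for each mark and the tag lists at the bottom; the black bar is the gene span. H3K4me1 blocks fill much of the gene body in both FOXD2 rows, with 66.73 and 75.89 kb of the span covered, against 26.56 and 25.42 kb in the control rows.

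FOXO1 showed the same layout on a smaller scale. Its span of 111.0 kb had 20.14 and 22.75 kb of H3K4me1 in FOXD2 cells and 6.34 and 5.28 kb in control cells. The 8 FOXD2-only regions summed to 10.39 kb, and 7 of them lay inside the gene. The widest, chr13:40609704-40612190, was 2487 bp wide at 55.7 kb from the start, had the authors' fold enrichment at 8.62 and 7.76, and carried H3K27ac in both FOXD2 lists and 1 control list. The one beyond the gene's end, chr13:40535981-40537891, had H3K27ac in all 4 lists and MLL4 in 1 list of each group. One shared region went the other way: 6.0 kb upstream, H3K4me1 covered 0.47 and 0.31 kb in FOXD2 cells and 1.92 and 1.87 kb in control cells. A FOXD2-only H3K27ac region, chr13:40666997-40667856, lay just upstream of the promoter.

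FOXP1 is the longest of the 10 genes, with a span of 629.3 kb that is mostly unmarked. Its 6 FOXD2-only H3K4me1 regions summed to 6.31 kb, all inside the gene, between 87.2 and 526.2 kb from the most upstream start. None had H3K27ac in both FOXD2 lists. The widest, chr3:71495800-71497666, was 1867 bp wide with the authors' fold enrichment at 8.91 and 9.02. Of the 6 listed FOXP1 promoters, only the most upstream one, shown above, had H3K4me3, in both lists, and the other 5 had none of the 4 marks in any list.

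Over the 10 windows, 41 H3K4me1 regions were FOXD2-only and 7 of the 10 genes had at least 1, against 62.8% of genes tested. FOXA1 had 2, FOXA2 had 1 and FOXD1 had 3, and FOXC1, FOXD2 and FOXF1 had none. H3K27ac in both FOXD2 lists lay on 4 of the 41, or 9.76%, against 10.2% of the 21471 FOXD2-only H3K4me1 regions in the genome. FOXD2-only H3K27ac was in the windows of 7 genes, against 51.2% of genes. Regions held by all 4 H3K4me1 lists numbered 62 in the windows. Of these, 26 were longer in both FOXD2 lists, against 33.5% of all such regions, and 8 were shorter, against 19.4%. At FOXC1, 4 of 7 such regions were shorter and none longer. Of 38 shared H3K27ac regions, 12 were longer in both FOXD2 lists, against 29.4% of all, and 4 were shorter, against 7.1%. The lengths of shared regions are part of the kb compared per window, so these counts are not a separate test.

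Control-only regions, the reverse case, were found most at FOXC1. H3K27ac of the 2 control lists that no FOXD2 list held lay at 3 places in its window, 19.7, 20.6 and 46.8 kb after the start, all on the neighbouring gene GMDS, an enzyme of fucose synthesis. A control-only MLL4 region, chr6:1630526-1631552, with the authors' fold enrichment at 4.37 and 6.04, overlapped the middle one. Control-only MLL4 was in the windows of FOXA1, FOXC1 and FOXO3, against 29.8% of genes. FOXO1 had 2 control-only H3K27ac regions and FOXA1 and FOXF1 had 1 each, and control-only H3K27ac was in the windows of 29.2% of genes. Control-only H3K4me1 was found at FOXD2, 9.9 kb upstream, and at FOXF1, in a background of 37.3% of genes. Part of the marked length in the FOXC1 window belongs to GMDS, which held 5.36 and 9.09 kb of its H3K27ac in FOXD2 cells and 14.16 and 9.64 kb in control cells.

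MLL4 covered at most 4.68 kb in any of the 10 windows, and no gene was called by limma in either direction. Of the 15840 genes tested, 4 (0.0253%) were higher and 57 (0.36%) lower at unadjusted p under 0.05, none of them among the 10. FOXO1 had 0.82 and 0.85 kb in FOXD2 cells and 0.29 and 0.26 kb in control cells. FOXQ1 had 1.34 and 0.74 kb in FOXD2 cells and 0.56 and 0.69 kb in control cells. These 2 were higher in both FOXD2 lists, against 2.34% of genes, by log2 differences of 0.53 and 0.31 that limma did not call. FOXO3 had 1.59 and 0.25 kb in FOXD2 cells and 1.73 and 1.91 kb in control cells, and FOXA1 had 0.37 and 0.00 kb in FOXD2 cells against 0.63 and 0.46 kb in control cells. These 2 were lower in both, against 17.9% of genes. Peaks were listed in the short FOXD2 list, replicate 2, at 4 of the 10 genes, FOXO1, FOXO3, FOXP1 and FOXQ1. They covered 0.85, 0.25, 0.30 and 0.74 kb there. The share of all genes with a peak in that list was not computed. The windows of FOXO1, FOXO3 and FOXP1 are also the longest of the 10, at 211.0, 225.0 and 729.3 kb. At FOXO3 a control-only MLL4 region, chr6:108560205-108561158, covered the promoter printed above, with the authors' fold enrichment at 7.27 and 9.49. Without FOXD2 replicate 2, FOXD2 cells have 1 MLL4 list and the spread comes from the 2 control lists alone. In that single list 7 of the 10 genes were above both control lists, where 53.5% of genes were. limma then called 1436 genes, or 9.12%, higher, and of the 10 only FOXA2, which rests on 0.64 kb in FOXD2 replicate 1 against 0.00 and 0.00 kb in control cells.

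H3K4me3 differed little in kb over the windows of the 10 genes, with 1 list per group and therefore no test. None of the 10 differed by 1.5-fold or more over the window, against 1.24% of 16890 genes for more and 3.81% for fewer in the FOXD2 list. On the gene span alone FOXD2 had 1585 bp in the FOXD2 list and 900 bp in the control list. Among regions within 2 kb of the gene spans, FOXO3 had the widest, 5756 bp, and 0.398% of the 26149 H3K4me3 regions were wider. FOXO1 followed with 4054 bp, FOXC1 with 3991 bp and FOXD2 with 3658 bp. FOXA2 had 0.62 kb in the FOXD2 list and 0.61 kb in the control list, in 1 region of 633 bp that did not touch the gene span.

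FOXD2 stood apart within its own gene. H3K4me3 covered 1585 bp of the gene span in the FOXD2 list and 900 bp in the control list. The highest fold enrichment of a peak within 2 kb of the gene span, as the authors gave it, was 157.15 in the FOXD2 list, above that of the other 9 genes, and 66.22 in the control list, eighth of the 10. Folds of 2 lists are not on 1 scale, and reads of the vector's FOXD2 coding sequence would map to the same place, so endogenous and vector signal cannot be told apart. H3K27ac covered 0.98 and 2.33 kb of the gene span in FOXD2 cells and 0.00 and 1.18 kb in control cells. H3K4me1 covered 0.00 and 0.90 kb of it in FOXD2 cells and 0.30 and 0.00 kb in control cells. Away from the coding sequence, a FOXD2-only H3K27ac region of 1821 bp, chr1:47430676-47432496, lay 6.5 kb upstream, with the authors' fold enrichment at 3.24 and 5.32.

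**Figure D5:**
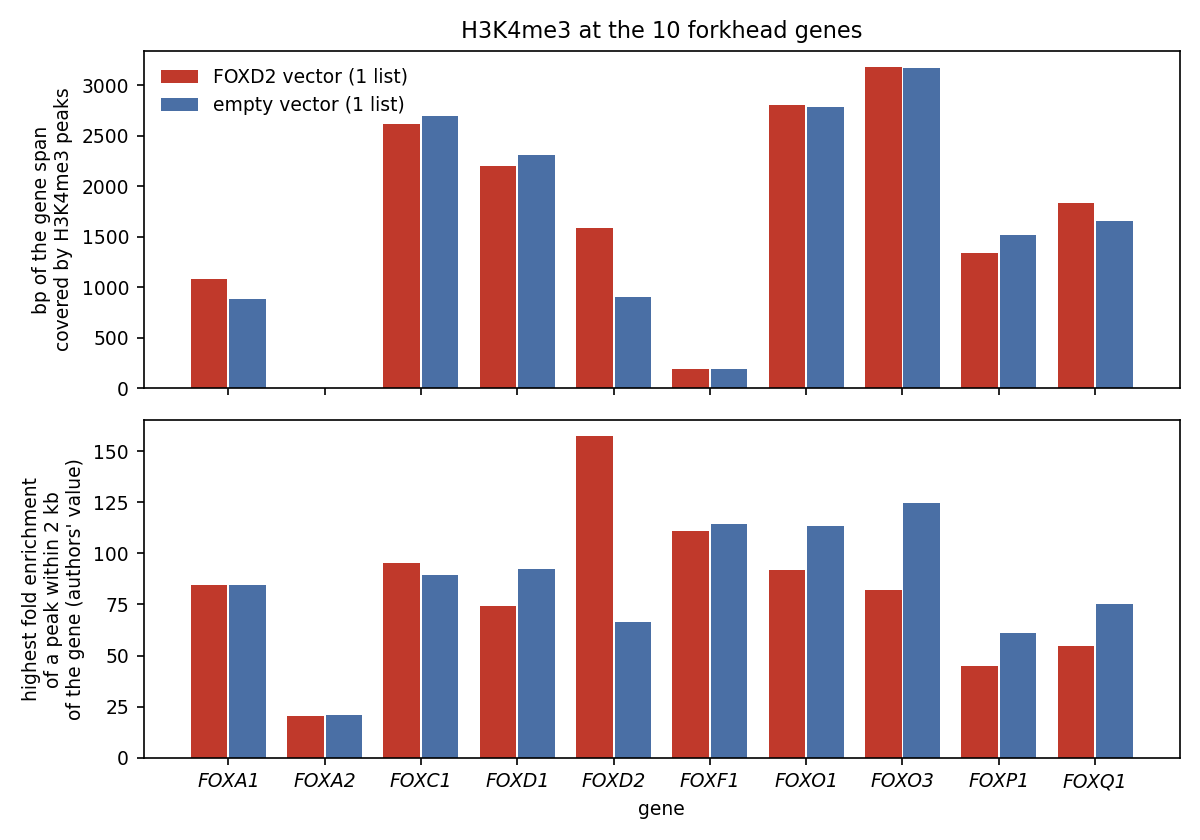
H3K4me3 at the 10 genes in 1 FOXD2 list (red, left bars) and 1 control list (blue, right bars): length of the gene span covered, in bp (top), and the authors' highest fold enrichment of a peak within 2 kb of the gene span (bottom). FOXD2 has 1585 bp in the FOXD2 list and 900 bp in the control list, and the highest bar of the FOXD2 list for fold, 157.15; FOXA2 has none on the gene span.

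Peaks of tagged FOXD2 lay in 8 of the 10 windows, counting any of the 4 tag lists, and in 84% of all genes' windows. A region shared by at least 2 tag lists was in 5 of the 10 windows, against 65.9% of all genes, and one shared by at least 3 was in 3, against 47.8%. A tag site, a region held by all 4 tag lists, lay in 1 of the 10 windows, against 28.6% of all genes. It was chr5:73497740-73499483, at the edge of the FOXD1 window, 49.8 kb upstream of FOXD1 and on BTF3, which encodes a subunit of the nascent polypeptide-associated complex. It was 1744 bp wide, with the authors' fold enrichment at 5.38 and 7.26 in the 6xHis lists and 4.34 and 5.26 in the FLAG lists. A peak of every tag list, not necessarily at 1 place, was in the windows of FOXD1, FOXO1 and FOXO3, against 51.5% of genes. FOXA2 and FOXC1 had no tag peak in any list. FOXD2 had 1 peak in 1 list, 49.3 kb upstream, and none on its coding sequence.

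Inside the 10 genes, the tag region in the most lists was at FOXO3, chr6:108586638-108588130, in 3 of the 4 lists, with the authors' fold enrichment at 4.72 in 6xHis replicate 1, 5.61 in FLAG replicate 1 and 5.92 in FLAG replicate 2. It lay 27.6 kb from the start, next to the fourth listed promoter of FOXO3, chr6:108588523-108588822, which had H3K4me1 in all 4 lists and none of the other marks. At FOXF1 a region of 3 tag lists, chr16:86563338-86564575, lay 47.9 kb beyond the gene span. At FOXQ1 the tags gave 1 FLAG peak 1.4 kb upstream, chr6:1310498-1310851, inside the FOXD2-only H3K27ac region of its promoter, and 1 6xHis peak at the far edge of the window. No tag peak lay on any of the 16 listed promoters. Of the 41 FOXD2-only H3K4me1 regions, 2 held a tag peak, both at FOXO3. The shares over all promoters and over all FOXD2-only H3K4me1 regions of the genome were not computed. These counts therefore do not tell whether the 10 genes differ from others.

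Of 34 further forkhead genes, near-identical FOXD4-like copies left out, 31 had H3K4me1 in at least 1 list, and the median log2 difference was 0.04 over these 31. limma called 4 of the 31 higher, FOXI3, FOXJ3, FOXJ2 and FOXN2, and none lower, where it called 21.4% of all genes higher. At an unadjusted p under 0.05, 7 of the 31 were higher and 0 lower, where 29% of all genes were higher. Without a test, 12 of the 31 were higher in both FOXD2 lists, where 46.5% of all genes were, and 3 lower, where 8.97% were. FOXI3, known from dog and mouse for hair and tooth development, had 4.11 and 6.28 kb in FOXD2 cells and 0.79 and 0.34 kb in control cells, a 9.23-fold difference of means. FOXJ3 had 34.64 and 52.32 kb in FOXD2 cells and 16.91 and 14.60 kb in control cells. FOXJ2 had 34.98 and 33.44 kb in FOXD2 cells and 20.70 and 19.64 kb in control cells, and FOXN2 had 10.78 and 17.01 kb in FOXD2 cells against 9.15 and 6.00 kb in control cells. FOXK2, FOXK1, FOXN3 and FOXP2 were higher in both FOXD2 lists too, and limma did not call them. FOXK2 had 57.17 and 60.91 kb in FOXD2 cells and 52.15 and 38.70 kb in control cells. FOXK1 had 35.07 and 38.62 kb in FOXD2 cells against 31.66 and 22.01 kb in control cells, FOXN3 had 30.61 and 35.47 kb in FOXD2 cells against 24.10 and 23.48 kb in control cells, and FOXP2 had 7.34 and 8.37 kb in FOXD2 cells against 6.99 and 5.84 kb in control cells. For H3K27ac, 1 of 30 was higher in both FOXD2 lists, where 27.9% of all genes were. It was FOXJ2, with 28.43 and 24.30 kb in FOXD2 cells and 13.66 and 9.11 kb in control cells.

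The gene whose 12 values of H3K4me1, H3K27ac and MLL4 were most like those of FOXQ1, after each mark was centred on its mean, was SLC2A14 on chromosome 12, with a Pearson r of 0.987 over 12 lists. Its H3K4me1 was 32.75 and 42.57 kb in FOXD2 cells and 12.13 and 9.78 kb in control cells. For FOXO3 it was RAB2A, with r of 0.985, and for FOXO1 it was DNTT, with r of 0.975. The 12 lists are the same for every gene, so their lengths enter each of these values.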

How the data were processed

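The authors deposited 1 narrowPeak list per library for 18 of 25 libraries, and the 7 inputs are not used here. Crosslinked, sonicated chromatin was used for MLL4 and the tags, and native chromatin cut with MNase for the histone marks, per the labels' protocols. Tools named in the submitters' processing notes are MACS2 2.2.7.1, Bowtie2 2.3.4.1, cutadapt 3.4, bedtools and Picard, with the build hg38. No source used here says which library was the background of a list. Per the file, each deposited peak has a fold enrichment (a ratio) and 2 scores on the −log10 scale, for p-value and for q-value, which are the authors' own values, used only to describe or filter peaks within a list. Every deposited peak had a −log10 q of at least 2.

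Only peaks of chromosomes 1 to 22 and X entered (1 to 35 per list were left out). For each list, the kb covered by peaks in the span of every protein-coding gene of RefSeq GRCh38.p14, extended by 50 kb on each side, was computed. limma 3.58.1 (lmFit, eBayes with trend, R 4.3.3) was fitted to log2(kb + 1) per mark, on genes with a peak of the mark in at least 1 list, with Benjamini-Hochberg adjustment over all of them and a threshold of 0.05. Fold is the ratio of mean kb. Regions are peaks of a mark merged at a gap of 0 bp, held by a list if 1 bp overlaps. The gene table gives no strand, which came from the promoter table for 8 of the 10 genes. The 10 genes, the list of other forkhead genes and the markers were chosen with earlier results of these data known. Other forkhead genes whose kb are given are the 8 with the widest kb difference among those whose groups do not overlap. Nearest-pattern genes were sought for the 3 of the 10 with the widest H3K4me1 difference. Alternatives covered the flank, threshold, list length, measure, overlap, pseudocount, filter, centring, each library left out and the replicate number as a block. The steps were tested on simulated data. Python 3.11.15 with numpy 2.4.6, pandas 2.3.3, scipy 1.17.1 and matplotlib 3.10.9 was used. Peak lists hold no read counts, so no interval for counting error is given.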

Additional observations from a re-analysis of the deposited data

How the results depend on the processing

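H3K4me1. The number of the 10 genes higher in both FOXD2 lists was 5, and 3 with no flank; the number lower was 1, and 0 with no flank or a 20 kb flank and 2 with a stricter −log10 q threshold of 5 or with equal list lengths. Leaving out 1 list in turn gave 5 to 8 higher (8 without control replicate 1) and 1 to 3 lower (2 without FOXD2 replicate 2, 3 without control replicate 2). limma called 3962 genes higher and 391 lower, against 2177 and 252 with no flank, 429 and 124 with the number of peaks, 52 and 37 with no filter, 631 lower with equal list lengths, 4827 lower with each list centred on its median, and 784 to 5275 higher and 157 to 229 lower without 1 list. Leaving out FOXD2 replicate 2 gave the 784, leaving out control replicate 2 gave 982 higher, and leaving out FOXD2 replicate 1 gave 1533. It called 4 of the 10 genes higher, against 0 with the number of peaks, 0 with no filter and 1 to 5 without 1 list, and 0 lower, against 2 with centring. At FOXD2 the difference turned to 0.61 and was called higher (limma adjusted p = 0.0397) with a 100 kb flank. At FOXQ1 it was 0.00 with no flank.

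H3K27ac. Of the 10 genes, 4 were higher and 1 lower, against 2 higher with the number of peaks, 0 lower with no flank or a 100 kb flank, and 4 to 8 higher and 1 to 5 lower without 1 list (8 higher without FOXD2 replicate 1, and lower 5 without FOXD2 replicate 2 and 2 without control replicate 2). limma called 0 genes, against 6 higher and 3 lower with no filter and 0 to 28 higher and 0 to 10 lower without 1 list, the upper ends without control replicate 1.

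The replicate number as a block gave 256 H3K4me1 genes lower, and 10 higher and 4 lower for H3K27ac, and changed no call among the 10 genes. Deviations of same-numbered lists correlated at 0.14 for H3K4me1, 0.26 for MLL4 and -0.65 for H3K27ac over genes, with only 2 pairs, so the numbers are not taken to pair samples. With the H3K27ac numbers crossed, a setting chosen after seeing the data, the block gave 4951 genes higher, 381 lower and 3 of the 10 higher.

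MLL4, H3K4me3 and tags. For MLL4, 2 of the 10 were higher and 2 lower, against 0 and 1 with no flank, 1 lower with a 100 kb flank or equal list lengths, 1 higher with the stricter threshold, 1 higher and 0 lower with the number of peaks, and 2 to 7 higher and 2 to 6 lower without 1 list (7 without FOXD2 replicate 2, 6 without FOXD2 replicate 1). limma called 0 genes and 0 of the 10 higher, and 0 to 1436 genes and 0 to 1 of the 10 without 1 list, the upper ends without FOXD2 replicate 2. For H3K4me3, 0 of the 10 passed 1.5-fold, against 1 (FOXD2) with no flank and 1 (FOXO3) with the number of peaks. A tag site was in 1 window, against 5 for sites of at least 2 tag lists, 3 for at least 3, 0 with no flank or a 20 kb flank, and 1 to 2 without 1 list (2 without 6xHis replicate 2 or FLAG replicate 1).

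Direction at single genes. Of 504 single-gene values, 44 turned sign against the reported log2 difference, and only the one at FOXD2 above was called. For H3K4me1, with no flank FOXA1 turned to -0.24, FOXA2 to -0.04 and FOXD2 to 0.27. FOXC1 turned to 0.02 with the number of peaks and FOXD1 to -0.03 with centring. FOXF1, reported at 0.01, was -0.09 with a 20 kb flank, -0.03 with the stricter threshold, -0.06 with equal list lengths, -0.26 with the number of peaks and -0.31 with centring. For H3K27ac, FOXA2 was -0.00 with centring, FOXD1 0.33 with a 100 kb flank and 0.00 with the number of peaks, and FOXD2 -0.01 with the number of peaks. FOXF1, reported at 0.06, was -0.07 with no flank or the number of peaks, -0.33 with a 20 kb flank, -0.15 with the stricter threshold, -0.21 with equal list lengths and -0.28 with centring. For MLL4, FOXD2 was 0.01 with a pseudocount of 5 kb and 0.28 with centring, FOXF1 -0.22 with a 100 kb flank and -0.40 with a pseudocount of 0.1 kb, and FOXQ1 -0.30 with equal list lengths. Without 1 list, H3K4me1 ran from -0.19 to 0.91 at FOXA2, -0.61 to 0.01 at FOXC1 and -0.17 to 0.18 at FOXF1. H3K27ac ran from -1.34 to 0.50 at FOXA1, -0.55 to 1.22 at FOXA2, -0.89 to 0.15 at FOXC1, -0.39 to 1.10 at FOXD2 and -0.70 to 0.81 at FOXF1. MLL4 ran from -0.83 to 0.12 at FOXC1, -1.15 to 0.34 at FOXD1, -0.51 to 0.50 at FOXD2, -1.0 to 1.51 at FOXF1 and -0.08 to 0.37 at FOXP1. Where a list is left out, the lone list of its group is assumed to vary like the other group. The cause of these changes was not tested. Of the other alternatives, 228 kept the count within 1.5 times and 62 did not. The 228 include counts that were none under both settings. With 2 lists per group and no read depth, small differences in covered length are not detectable here.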
